A study of Mus musculus with 18 samples.

Results

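Regulatory T cells (Treg cells) that carried the I363V form of Foxp3 were compared with those that carried the R397W form, over 18193 genes. The comparison took every array labelled with either form, 3 of I363V and 3 of R397W, out of 18 Affymetrix mouse arrays in 7 groups. Both mutant populations were hCD2+GFP- CD4+ cells sorted from lymph nodes and spleen of B6;129 mice. Each mouse was heterozygous, with the mutant Foxp3 allele tagged with an hCD2 reporter and a wild-type allele tagged with GFP, so the mutant cells had shared their host with wild-type Treg cells. The remaining groups were Treg cells carrying A384T (3 arrays), the GFP wild-type Treg cells of those A384T mice (3), wild-type Treg cells with the hCD2 tag (WT hCD2, 2) or the GFP tag (2), and conventional T cells lacking both tags (Tconv, 2). All cells were taken fresh, without treatment. The labels give neither the age of the mice nor the number of animals behind an array. The p-values and standard errors below thus measure the spread between arrays of a group, which may be technical. Except where only some groups were fitted, that spread is pooled over all 7 groups and not taken from the compared arrays alone.

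Foxp3 is a forkhead transcription factor that Treg cells need for their identity and their suppressive function, and substitutions in its DNA-binding domain are a known cause of the human autoimmune syndrome IPEX. It both raises and lowers the transcription of its targets, in part through partner factors, so that different substitutions can leave different parts of the programme in place. Lysozymes, the enzymes that cut bacterial cell walls, are abundant in macrophages and neutrophils, while the AP-1 factors of the Fos and Jun families are immediate early genes, transcribed within minutes of a stimulus such as antigen.

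The values were log2 signals from which the Tconv average had been taken away, so a value of 1 is a 2-fold higher signal than in Tconv cells and a gene's absolute level is not contained in them. Foxp3 itself was at 6.95, 7.11 and 6.51 on I363V arrays 1, 2 and 3, and at 6.38, 6.55 and 7.0 on R397W arrays 1, 2 and 3. The groups overlapped, and the difference was 0.22 ± 0.17 (SE, n = 3 arrays a group; 95% confidence interval -0.16 to 0.59; limma adjusted p = 0.787). The WT hCD2 arrays stood at 7.33 and 7.06, so each mutant population carried a strong Foxp3 signal. Over all genes the median difference was 0.01.

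Few genes separated the mutants. At a limma adjusted p under 0.05, 15 of 18193 genes (0.0824%) were called, 4 higher in I363V (0.022%) and 11 higher in R397W (0.0605%). An unadjusted limma p under 0.05 was reached by 1550 of the 18193 genes, the baseline for the same counts of gene lists below. The called genes higher in I363V were the lysozyme genes Lyz1 and Lyz2, Mettl23 and Fam91a1, and those higher in R397W included Gimap7, Madd, Dido1 and Mllt11. In all 15 called genes every array of one mutant lay beyond every array of the other, a separation that 1917 genes (10.5%) showed, 5.27% in each direction.

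Lyz1, which encodes a lysozyme, had the largest called difference. It was at -0.08, 0.32 and 0.04 in I363V and at -3.88, -3.09 and -3.84 in R397W. The I363V arrays were near the Tconv level, and the R397W arrays lay below all the other 15 arrays, of which the lowest was -1.69. The signal was 13.0-fold higher in I363V (difference 3.70 ± 0.34, SE, n = 3; 95% confidence interval 2.96 to 4.43; limma adjusted p = 0.000539), and the call was made with each of the 6 arrays left out in turn. Lyz2, the neighbouring paralog that is the main lysozyme gene of macrophages, was at 0.58, 0.62 and 0.48 in I363V and at -1.83, -2.06 and -1.53 in R397W. Here too the R397W arrays lay below all 15 others, and the 5.14-fold difference (2.36 ± 0.31, n = 3; limma adjusted p = 0.012) was called in 4 of the 6 fits that left out an array. The WT hCD2 arrays were at 1.02 and 0.59 for Lyz1 and at 1.17 and 0.53 for Lyz2. In bulk RNA such as this, fewer cells of a type and less RNA per cell cannot be told apart.

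**Figure D1:**
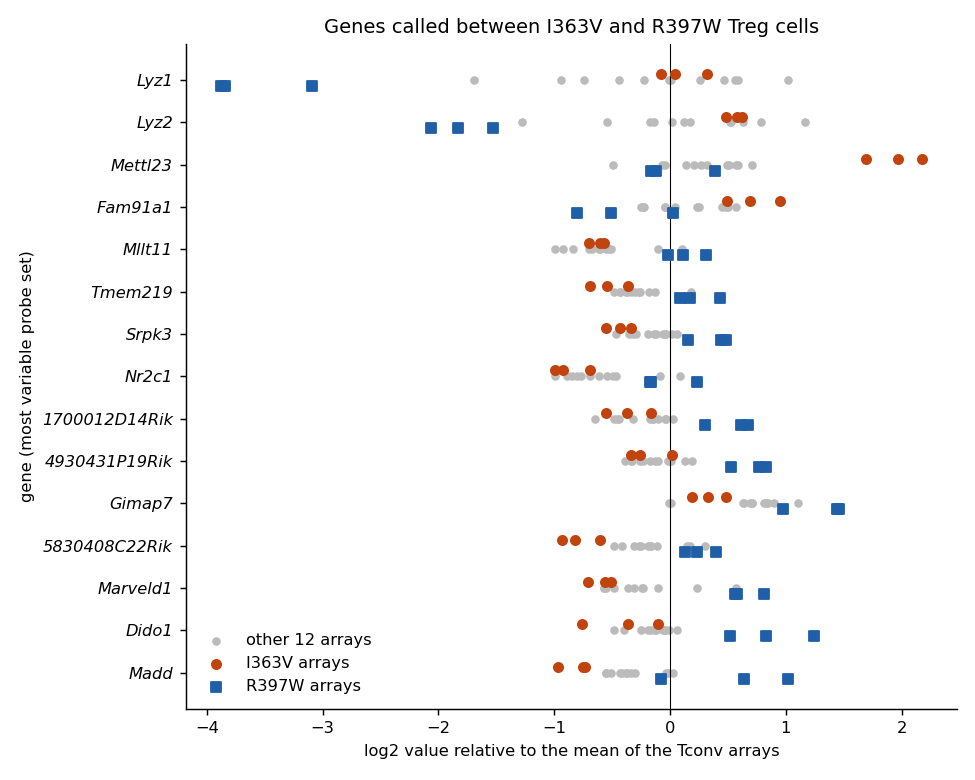
The log2 value relative to the Tconv mean (x axis) of each of the 15 called genes (y axis) is plotted for the 3 I363V arrays (circles), the 3 R397W arrays (squares) and the other 12 arrays (grey). The R397W arrays of Lyz1 sit between -3.88 and -3.09, left of every other array, and the I363V arrays of Mettl23 sit between 1.69 and 2.18, right of every other array.

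The sequences just upstream of the lysozyme genes are shown because these neighbours separated the mutants in the same direction and are paralogs whose transcripts can bind the same array probes. They are the 250 bases before each start in RefSeq (GRCm38.p6), 5′ to 3′ on the gene's strand.
Lyz1, chr10:117292869-117293118, - strand: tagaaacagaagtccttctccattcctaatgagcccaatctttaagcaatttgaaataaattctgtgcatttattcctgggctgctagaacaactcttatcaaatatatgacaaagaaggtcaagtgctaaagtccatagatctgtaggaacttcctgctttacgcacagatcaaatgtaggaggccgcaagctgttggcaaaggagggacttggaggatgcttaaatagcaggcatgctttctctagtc
Lyz2, chr10:117282273-117282522, - strand: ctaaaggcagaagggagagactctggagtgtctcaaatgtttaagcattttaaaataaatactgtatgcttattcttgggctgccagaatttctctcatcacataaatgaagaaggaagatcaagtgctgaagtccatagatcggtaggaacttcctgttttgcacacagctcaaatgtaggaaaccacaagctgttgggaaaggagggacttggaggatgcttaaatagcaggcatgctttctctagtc
The windows end 10596 bases apart on the same strand, and a global alignment of them had 79.4% identical positions (200 of 252). Neither held a cAMP response element (CRE, TGACGTCA), a forkhead motif (GTAAACA) or a CArG box, searched on both strands. Of the 15 called genes 11 had a window in the RefSeq table, 14 windows in all, and none of these 14 held any of the motifs. Over all 32851 windows of this length the motifs occurred in 1.55%, 3.17% and 1.47% respectively.

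Probe sets for Lyz1 differed. The probe set that stood for the gene, 1436996_x_at, and a second one, 1439426_x_at, gave differences of 3.70 and 3.63, whereas 1450822_at gave 0.21 (limma adjusted p = 0.59 over all probe sets). The first pair are of the kind that Affymetrix marks as able to bind related transcripts, so how much of the Lyz1 signal came from Lyz2 is uncertain. Lyz2 was measured by a single probe set.

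Of the other called genes, Mettl23, a histone arginine methyltransferase gene, was at 1.69, 2.18 and 1.97 in I363V and at -0.12, 0.39 and -0.16 in R397W (difference 1.91 ± 0.26, n = 3; limma adjusted p = 0.012). Its I363V arrays lay above all 15 others, of which the highest was 0.71, and the R397W arrays were within the range of the other 12 arrays. Fam91a1, whose product acts in vesicle tethering at the Golgi, was at 0.49, 0.95 and 0.69 in I363V and at -0.51, 0.03 and -0.80 in R397W (1.14 ± 0.19, limma adjusted p = 0.0495).

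Among the 11 genes higher in R397W, Gimap7, a GTPase gene of the lymphocyte GIMAP family, was at 0.48, 0.33 and 0.19 in I363V and at 1.44, 0.98 and 1.46 in R397W. The WT hCD2 arrays, at 0.81 and 0.63, lay between the mutants, and the difference was -0.96 ± 0.14 (n = 3; limma adjusted p = 0.0198). The other 7 measured GIMAP genes were not called, with differences from -0.41 to 0.12. Madd, which encodes a signalling adaptor that also activates Rab GTPases, was at -0.73, -0.97 and -0.75 in I363V and at 0.64, -0.08 and 1.02 in R397W (-1.35 ± 0.20, limma adjusted p = 0.0198). Its lowest R397W array was array 2. Mllt11, known as a fusion partner of the leukaemia gene Kmt2a, was at -0.57, -0.70 and -0.60 in I363V, beside -0.70 and -0.61 in WT hCD2 cells, and at 0.31, 0.11 and -0.02 in R397W (-0.76 ± 0.10, limma adjusted p = 0.012). Dido1, which encodes a chromatin-binding protein, had a difference of -1.27 ± 0.19 (limma adjusted p = 0.0198), with all R397W arrays above the 15 others. The remaining 7 were Marveld1, the orphan nuclear receptor gene Nr2c1, the splicing factor kinase gene Srpk3, Tmem219 and the uncharacterised transcripts 5830408C22Rik, 4930431P19Rik and 1700012D14Rik, with differences from -1.24 to -0.76.

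Most of these calls rested on 1 probe set of the gene. Of the 15 genes 13 had several probe sets, and in 1 of them, Lyz1, more than 1 was called. Both called Lyz1 probe sets are of the kind able to bind related transcripts, and the remaining one gave 0.21. The second Gimap7 probe set gave -0.36 (limma adjusted p = 0.66), the other Mettl23 probe sets gave -0.27 and -0.35, and the other Madd probe set gave 0.09. The other Dido1 probe sets gave 0.03, -0.50, -0.25 and 0.09. With the probe set chosen by its variance over the other 12 arrays Dido1 was at -0.25 (limma adjusted p = 0.83). Lyz2 and 5830408C22Rik had a single probe set.

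**Figure D2:**
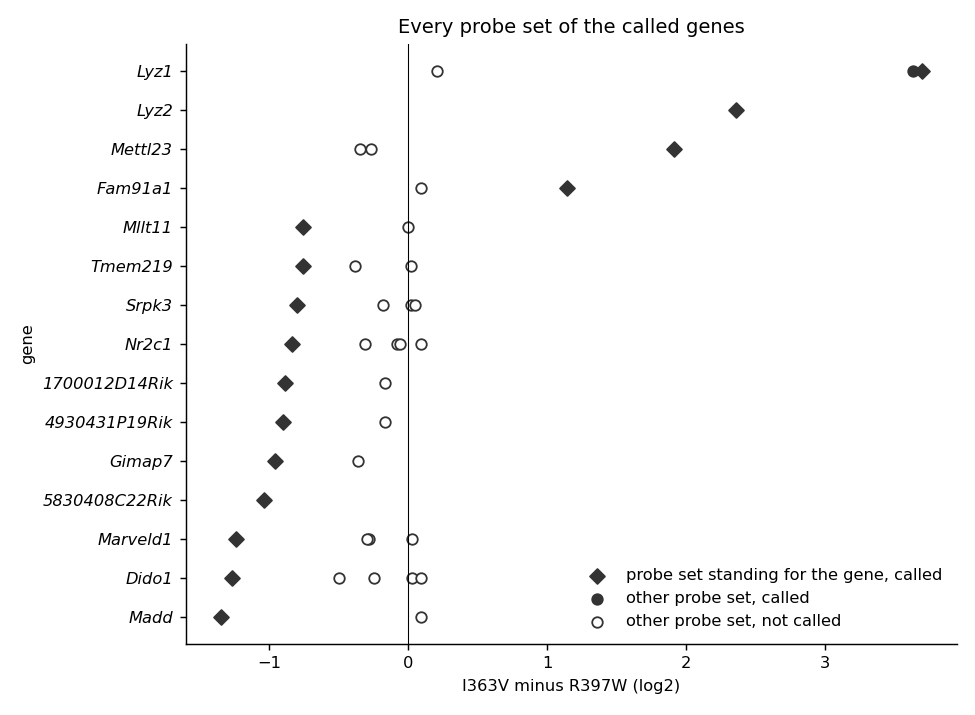
The I363V minus R397W difference in log2 (x axis) is plotted for every probe set of the 15 called genes (y axis), as diamonds for the probe set that stood for the gene and circles for the others, filled where called. Lyz1 has a second filled symbol at 3.63, and the open circles of the other genes lie between -0.50 and 0.09.

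The number of genes called depended on which arrays entered the fit. With only the 6 compared arrays limma called 3 genes higher in I363V and 0 higher in R397W, with 1008 genes at an unadjusted p under 0.05. Leaving out R397W array 2 gave 57 genes (0.313%), 30 higher in I363V (0.165%) and 27 higher in R397W (0.148%), of which 13 were among the 15 called with all arrays. In 53 of the 57, R397W array 2 was the R397W array nearest the I363V mean. Calls and p-values without it, here and below, thus partly follow from removing the array that narrowed the gap. Leaving out R397W array 1 left 1 called gene, Lyz1, with 1724 genes at an unadjusted p under 0.05. Without I363V array 1, 2 or 3 there were 16, 5 and 26 called genes, and without R397W array 3 there were 14. Without both arrays numbered 2 there were 27 (0.148%), 16 higher in I363V (0.0879%) and 11 higher in R397W, and 8 of the 27 were among the 15. Lyz1 was the 1 gene called in all 6 fits that left out a single array. Lyz2, Mettl23, Madd, Srpk3, Mllt11 and Dido1 were called in at least 3 of them, and the other 8 genes in 1 or 2.

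**Figure D3:**
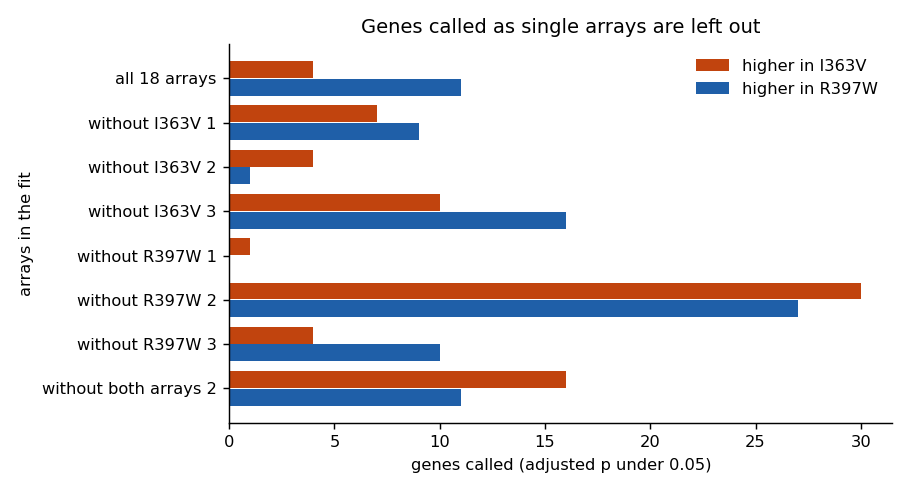
Bars give the number of genes called at an adjusted p under 0.05 (x axis) with all 18 arrays and with each I363V or R397W array, or both arrays numbered 2, left out (y axis), split by direction. The count runs from 1 without R397W array 1 to 57 without R397W array 2.

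Differences of at least 1 between the group means were found in 172 genes (0.945%), 69 higher in I363V and 103 higher in R397W (0.379% and 0.566%). Of these, 77 were seen on all arrays, meaning that the groups did not overlap, 41 higher in I363V and 36 higher in R397W. Another 12 were carried by 1 array, meaning that the groups overlapped and leaving that array out took the difference below 50% of its size or turned it. The remaining 83 overlapped without resting on 1 array. Of the 12, 7 were higher in I363V and 5 higher in R397W. I363V array 2 carried 10 of the 12, among them all that were higher in R397W. I363V array 1 carried Tgfb1, R397W array 3 carried Pabpc1, and R397W array 2 carried none. R397W array 2 was nevertheless the array that stood apart on the most genes: 604 lay at least 1 from the mean of the other R397W arrays, against 218 and 462 for arrays 1 and 3. For I363V arrays 1, 2 and 3 the numbers were 75, 456 and 507.

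Among the early-response genes, the AP-1 genes given next did not overlap between the groups, but R397W array 2 stood apart in most of them. Jun, a core AP-1 subunit, was at 1.63, 2.32 and 2.01 in I363V and at -3.68, 0.88 and -3.22 in R397W. The groups did not overlap, but R397W array 2 lay near the WT hCD2 arrays (1.2 and 0.92) and more than 4 log2 units above the other R397W arrays. The difference of 3.99 ± 0.84 was not called (n = 3; limma adjusted p = 0.114), while without R397W array 2 it was 5.43 (adjusted p = 2.75e-05). Fos, its dimer partner, was at 1.10, 1.49 and 1.02 in I363V and at -2.42, 1.0 and -2.92 in R397W. R397W array 2 came to within 0.02 of the lowest I363V array, and the difference was 2.65 ± 0.68 with all arrays (limma adjusted p = 0.191) and 3.87 without array 2 (adjusted p = 2.45e-06). Fosb was at 2.70, 6.01 and 1.76 in I363V and at -0.52, 1.73 and -0.28 in R397W (3.18 ± 0.89, limma adjusted p = 0.254), with array 2 the highest of each group, and the difference was 1.92 without I363V array 2 and 3.89 without R397W array 2. Junb was at 1.98, 2.54 and 2.61 in I363V and at 0.11, -0.21 and 1.0 in R397W (2.08 ± 0.36, limma adjusted p = 0.0545). For Junb, unlike the other AP-1 genes just named, array 2 was the lowest of the R397W arrays, and the value without it was 1.82.

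Other inducible genes were also high in I363V in value. Sik1, a kinase gene induced by cAMP, was at 2.18, 3.62 and 2.76 in I363V and at -0.93, 1.88 and -1.54 in R397W (3.05 ± 0.71, limma adjusted p = 0.151; 4.09 without R397W array 2, adjusted p = 0.00401), and its second probe set gave 0.57. Ppp1r15a, which encodes the stress-induced phosphatase subunit GADD34, was at 1.26, 2.40 and 1.98 in I363V and at -0.70, 0.69 and -0.50 in R397W (2.05 ± 0.42, limma adjusted p = 0.113; 2.48 and 0.0183 without that array). Dusp1, a MAP kinase phosphatase gene, was at 2.48, 3.63 and 2.74 in I363V and at 0.79, 1.91 and 0.59 in R397W (1.86 ± 0.46, limma adjusted p = 0.179; 2.27 and 0.0586). In these 3 genes array 2 was the highest array of each mutant. Zfp36, which encodes an RNA-binding protein that destabilises cytokine messages, was at 1.13, 1.51 and 1.32 in I363V and at 0.14, -0.39 and 0.40 in R397W (1.27 ± 0.32, limma adjusted p = 0.189). In Zfp36, as in Junb, array 2 was the lowest of the R397W arrays, and the difference without it was 1.05. Klf4 and Rgs2, chosen after their values were seen, overlapped between the groups through R397W array 2. Klf4, a zinc-finger factor gene, was at 2.15, 4.27 and 1.67 in I363V and at -1.88, 1.75 and -1.43 in R397W, and Rgs2, a regulator of G protein signalling, was at 0.20, 1.38 and 0.51 and at -1.76, 0.35 and -2.02. Without that array they differed by 4.35 and 2.58, and no p-value is given because both genes were picked on these values.

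**Figure D4:**
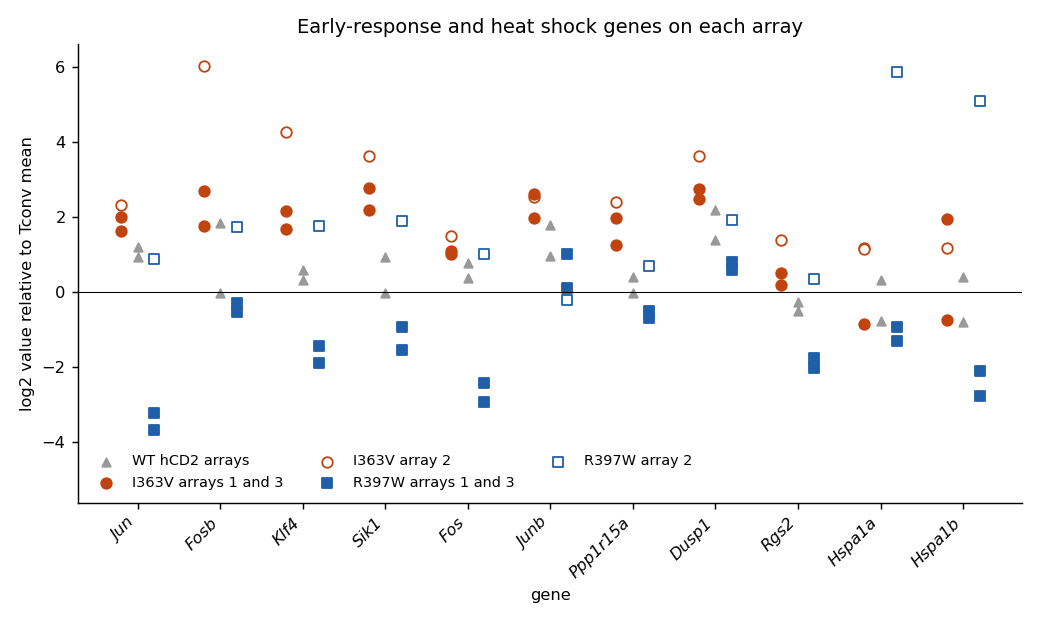
Log2 values relative to the Tconv mean (y axis) of 9 early-response and 2 heat shock genes (x axis) are plotted for each I363V array (circles), R397W array (squares) and WT hCD2 array (triangles), with array 2 of each mutant as an open symbol. For Jun the open square is at 0.88 and the filled squares at -3.68 and -3.22, and for Hspa1a the open square is at 5.86.

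As lists, the 11 AP-1 genes had a median difference of 0.80, with 9 positive, 5 at least 1 higher in I363V, 4 of 11 (36.4%, against 10.5% of all genes) not overlapping and 0 called (limma; 5 at an unadjusted p under 0.05). The 22 genes of the T cell receptor and NF-kB early response had a median of 0.58, with 20 positive, 5 at least 1 higher in I363V, 6 of 22 (27.3%) not overlapping and 0 called (9 at an unadjusted p under 0.05). These medians depended on the arrays numbered 2. The AP-1 median was 0.92 without R397W array 2, where Jun and Fos were called, and 0.09 without I363V array 2. The early-response median was 0.61 and 0.33 in the same order. I363V array 2 was the highest of its group in 8 of 11 AP-1 and 19 of 22 early-response genes (86.4%, against 35.0% of all genes). R397W array 2 was the highest of its group in 7 of 11 and 12 of 22 (54.5%, against 28.8%). The same arrays had a low 5′ relative to 3′ signal of the beta-actin control: the difference was 0.66, -0.52 and 0.71 for I363V and 0.88, -0.70 and 0.68 for R397W, against 0.27 to 0.82 on the other Treg arrays. The Gapdh control was low for I363V array 2 but not for R397W array 2, with -0.06, -1.29 and 0.79 for I363V and 0.83, 0.40 and -0.26 for R397W, against -0.27 to 0.70. The part of RNA quality in these values was not tested.

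The upstream windows of Dusp1 and Ppp1r15a are shown because they hold the full CRE, the site of the cAMP- and stimulus-responsive factor CREB, which is in capitals (RefSeq, GRCm38.p6, 5′ to 3′).
Dusp1, chr17:26508473-26508722, - strand: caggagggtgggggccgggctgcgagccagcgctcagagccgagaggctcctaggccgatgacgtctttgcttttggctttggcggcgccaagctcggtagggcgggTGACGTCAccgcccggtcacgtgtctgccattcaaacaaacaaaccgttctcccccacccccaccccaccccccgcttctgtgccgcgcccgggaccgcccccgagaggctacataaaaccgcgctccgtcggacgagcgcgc
Ppp1r15a, chr7:45526269-45526518, - strand: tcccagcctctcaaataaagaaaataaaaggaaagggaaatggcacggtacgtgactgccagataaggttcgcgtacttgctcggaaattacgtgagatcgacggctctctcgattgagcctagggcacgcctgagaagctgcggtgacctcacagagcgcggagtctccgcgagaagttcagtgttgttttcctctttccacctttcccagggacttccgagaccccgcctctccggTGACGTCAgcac
All 10 AP-1 and early-response genes at least 1 apart had a window, 11 windows in all, and 2 of the 11 held the CRE, against 1.55% of all windows. The forkhead motif was found in 1 of them (Junb) and the CArG box, the site of serum response factor, in 1 (Zfp36). A match describes these letters and shows no binding.

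Among heat shock genes, Hspa1a and Hspa1b were singled out after their values were seen. Hspa1a, an inducible HSP70 gene, was at 1.17, 1.14 and -0.85 in I363V and at -1.30, 5.86 and -0.94 in R397W. Its copy Hspa1b was at 1.94, 1.18 and -0.74 and at -2.10, 5.07 and -2.77. R397W array 2 was the highest array in both genes, which are near-identical and may share signal, and the groups overlapped. Without R397W array 2 the differences were 1.61 and 3.22 (limma adjusted p = 0.266 and 0.15) in place of -0.72 and 0.73. The 14 measured heat shock and chaperone genes had a median difference of 0.43, with 0 called by limma and 3 at an unadjusted p under 0.05.

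The differences carried by I363V array 2 also included inducible genes. Nr4a2, an orphan nuclear receptor gene induced by antigen, was at 1.81, 4.88 and 1.39 in I363V and at 1.26, 1.88 and 0.16 in R397W, and its difference of 1.59 became 0.50 without I363V array 2. Fosl2, an AP-1 subunit, was at -1.11, 2.52 and -1.43 against -1.10, -0.48 and -1.84, and its difference of 1.13 became -0.13. Apol8, an apolipoprotein L family gene, was at 0.01, 4.02 and 0.13 against 0.03, -0.02 and 0.21, so that 1 array held the whole difference of 1.32. Cd24a, a surface glycoprotein gene, was at 0.65, 2.80 and 0.28 against 0.38, 0.67 and -0.36 (1.01, and 0.23 without the array). None of the 4 was called. All 4 were high on I363V array 2, whereas the carried genes that were higher in R397W were low on it.

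Genes seen on all arrays but not called were led in the other direction by Neurl3, a ubiquitin ligase gene, at 0.04, -1.32 and 1.94 in I363V and at 2.83, 2.32 and 3.68 in R397W (-2.73 ± 0.69, limma adjusted p = 0.189). The groups were separate, but the I363V arrays spread over more than 3 log2 units. Ms4a1, which encodes the B cell antigen CD20, was at -0.68, -0.72 and -0.82 in I363V and at 0.32, 0.87 and 1.15 in R397W, with the WT hCD2 arrays at -0.23 and -0.27 (-1.52 ± 0.27, limma adjusted p = 0.0607). Slfn5, a Schlafen family gene, was at 0.33, -0.48 and -0.89 against 1.33, 0.96 and 1.12 (-1.49 ± 0.27, limma adjusted p = 0.0569). Ctse, a cathepsin gene, was at -2.39, -2.97 and -2.63 against 0.46, -0.27 and -2.23, and R397W array 3 lay just above the highest I363V array (-1.98 ± 0.85, limma adjusted p = 0.542). Crebbp, Akap13, Arhgef18 and Dnmt3a had differences from -1.97 to -1.73, each on 1 of several probe sets. As the mean of their probe sets the differences were -0.36, -0.37, -0.45 and -0.63 in the same order. The other Crebbp probe sets gave 0.20, 0.32 and 0.03. Arhgef18 was called without R397W array 2 (-2.33, limma adjusted p = 0.00561), but with the probe set chosen by its variance over the other 12 arrays it was 0.39. In the I363V direction, Trp53inp2 and Dtl, genes of autophagy and of DNA replication control, had differences of 2.15 and 2.13 and were called without R397W array 2 (2.66 and 2.86, limma adjusted p = 0.0308 and 0.0141). Dtl was 0.05 with the probe set chosen over the other 12 arrays and 0.74 as the mean of its probe sets, and the second Trp53inp2 probe set gave 0.60.

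Markers of other cells that a CD4 sort could hold were set beside these results. All 22 measured genes of the myeloid and neutrophil list had a positive difference, against 51.3% of all genes, with a median of 0.36. Lyz1 and Lyz2 were the 2 called, and 9 of the 22 (40.9%, against 10.5%) did not overlap. The mean over the list ranged from -0.29 to -0.06 for I363V, from -1.0 to -0.76 for R397W and from 0.15 to 0.27 on the WT hCD2 arrays. Without Lyz1 and Lyz2 the other 20 had a median of 0.30, and the mean over them ranged from -0.34 to -0.12 in I363V and from -0.82 to -0.57 in R397W. On A384T arrays it ranged from -0.56 to 0.44.

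S100a8, a calprotectin subunit gene of neutrophils, was at 0.11, 0.17 and -0.41 in I363V and at -1.71, -1.68 and -1.54 in R397W, where the arrays lay closely together (1.60 ± 0.68, limma adjusted p = 0.542). Its partner S100a9 was at 0.05, 0.14 and -0.31 against -1.60, -0.90 and -1.16 (1.18 ± 0.59, limma adjusted p = 0.618). Chil3, a chitinase-like gene of macrophages and neutrophils that was not on the list, was at 0.67, 0.93 and 0.60 against -1.21, -1.25 and -1.65 (2.10 ± 0.69, limma adjusted p = 0.354). Csf1r, the receptor gene of the macrophage growth factor CSF1, was at -0.76, -0.36 and -0.46 against -1.64, -0.89 and -1.23 (0.73 ± 0.39, limma adjusted p = 0.654). The groups did not overlap in these 4 genes, and none was called in the fit of all 18 arrays. The standard errors of that fit come from the spread within all 7 groups, not from the I363V and R397W arrays alone. Chil3 was called when only the 6 arrays were fitted (limma adjusted p = 0.0319), where Lyz1 and Lyz2 were the other calls. On A384T array 2 S100a8 was at 1.69. The granule enzyme genes Mpo and Elane differed by 0.09 and 0.01. The part of myeloid RNA in the Lyz1 and Lyz2 differences was not tested.

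**Figure D5:**
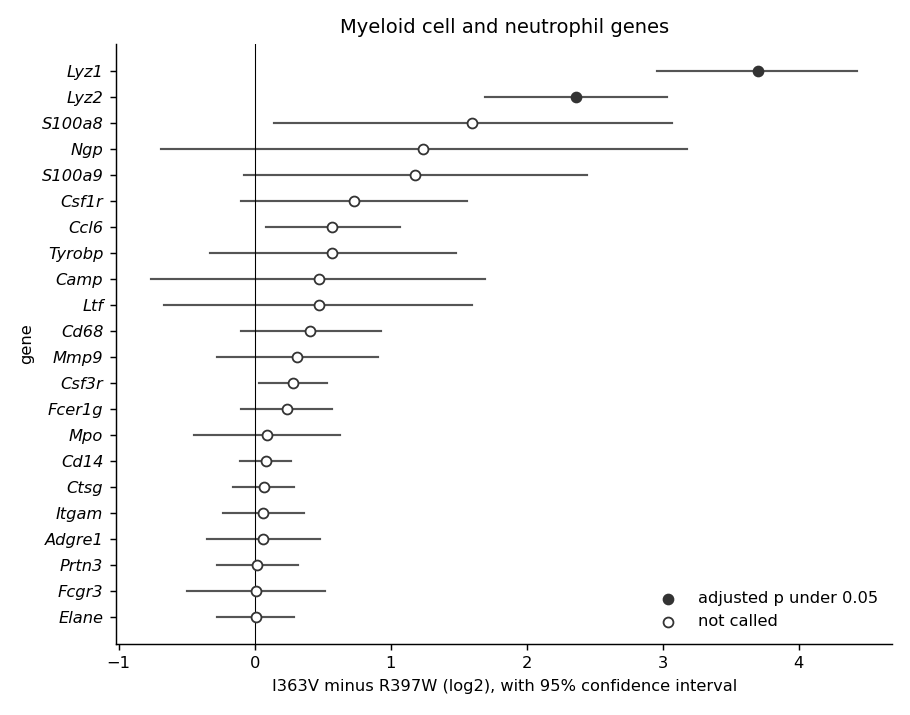
The I363V minus R397W difference in log2 with its 95% confidence interval (x axis) is plotted for the 22 measured myeloid and neutrophil genes (y axis), filled where called. All 22 points lie at or right of 0, and Lyz1 (3.70) and Lyz2 (2.36) are the filled ones.

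B cell markers were mostly higher in R397W in value: 8 of 11 differences were negative, with a median of -0.31, 3 not overlapping (27.3%, against 10.5%) and 0 called by limma (5 at an unadjusted p under 0.05, Ms4a1 the farthest apart). Lists of dendritic, CD8 T and natural killer, plasma, erythroid and stromal cells had medians from -0.11 to 0.15, and the list of T cell identity genes had -0.05, with 0 called in each (limma; 1 gene at an unadjusted p under 0.05, on the dendritic list). Without R397W array 2 the dendritic and T cell identity medians were -0.35 and -0.32.

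For the Treg programme, the 24 measured genes known to be higher in Treg than in conventional cells had a median difference of 0.15, with 18 positive and 0 called by limma (5 at an unadjusted p under 0.05). The median was 0.08 without R397W array 2 and 0.06 without both arrays numbered 2. The median level of the list was 2.45, 2.29 and 2.29 in I363V and 2.45, 1.84 and 2.11 in R397W, so the groups overlapped. In 4 of the 24 (16.7%, against 10.5%) the groups did not overlap, all with I363V higher. Itgae, the integrin subunit CD103, was at 2.41, 2.53 and 2.19 in I363V and at 1.66, 1.44 and 1.92 in R397W, far below the WT hCD2 arrays at 4.47 and 4.85 (0.70 ± 0.20, 95% confidence interval 0.27 to 1.14; limma adjusted p = 0.27). Il10ra, a subunit of the IL-10 receptor, was at 0.36, 0.13 and 0.45 against -0.15, -0.55 and -0.32 (0.65 ± 0.13, limma adjusted p = 0.113). Entpd1, the ectonucleotidase CD39, differed by 0.47 and also did not overlap. Il2ra, the IL-2 receptor subunit CD25, was at 4.96, 4.8 and 4.32 against 4.31, 4.30 and 4.61, with a difference of 0.28 and an interval of -0.06 to 0.63. Ikzf2, which encodes Helios, differed by 0.11, with an interval of -0.21 to 0.42.

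The list of effector and tissue Treg genes had a median of 0.38 over 25 measured genes, with 0 called by limma. Of the 25, 19 were positive and 6 (24%, against 10.5%) did not overlap. An unadjusted limma p under 0.05 was reached by 3 of the 25, against 1550 of all 18193 genes. The median was 0.22 without I363V array 2 and 0.14 without both arrays numbered 2. Klrg1, a marker of terminally differentiated Treg cells, was at -0.50, 0.12 and -0.22 in I363V and at -0.76, -0.70 and -0.23 in R397W, while the WT hCD2 arrays were at 3.49 and 4.92. Its difference between the mutants was 0.36, with an interval of -0.45 to 1.18. Gata3 differed by 0.69, with I363V array 3 below R397W array 3. In 18 of the 24 Treg genes and 20 of the 25 effector genes the I363V mean lay between the R397W mean and the WT hCD2 mean, against 6857 of all 18193 genes. The WT hCD2 list medians lay above those of every mutant array (3.57 and 3.47 for the Treg genes, 1.5 and 1.65 for the effector genes). Where wild type is higher, lying between largely repeats a positive difference. These counts are therefore no separate result, and the count over all genes is no baseline for them. Genes known to be lower in Treg cells and genes of IL-2 and STAT5 signalling, chemokine and homing receptors, helper T cell regulators and cytokines, naive cells, the interferon response and the cell cycle had list medians from -0.07 to 0.28 and 0 called members (limma; from 0 to 4 genes a list at an unadjusted p under 0.05). The highest of these medians, that of IL-2 and STAT5 signalling, was 0.10 without R397W array 2, whose list median was -0.08 beside 1.3 on both other R397W arrays.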

How the data were processed

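RNA of 18 sorted mouse T cell samples was measured on Affymetrix arrays after two-cycle labelling, per the labels' protocols. The deposited values are log2 signals that the authors made with RMA, per the submitters' processing notes; the software, version and log base are not given in the sources used here, and the base of 2 is that of RMA. The Tconv arrays sum to 0 on every probe set, so the deposited values are relative to their mean. Background signal could not be assessed, and the number of arrays limits precision. Of 45101 probe sets, 34945 were assigned to 1 gene, 932 to several, 9160 to none and 64 were controls. Each of 18193 genes was represented by whichever of its probe sets varied most across the 18 arrays. These include the compared arrays, so the choice was not independent of the difference tested. All 7 groups were fitted with limma 3.58.1 (R 4.3.3; lmFit and eBayes, 11 residual degrees of freedom), two-sided, with Benjamini-Hochberg adjustment over all genes. Tables and figures used Python 3.11.15, pandas 2.3.3 and matplotlib 3.10.9. The fit was tested on simulated data in which each gene varied independently. That test covers neither deviations shared by many genes on an array nor the choice of probe sets. Named were Lyz1, Lyz2, Gimap7, Foxp3, up to 12 called genes and 8 non-called genes seen on all arrays in each direction, the 4 genes farthest out on each array that carried a difference alone, and members and defining genes of gene lists. The genes and lists were chosen with earlier results of these data known. Alternatives changed the arrays, probe sets, weights, thresholds and blocking. Probe sets without a single gene were left out of the main comparison.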

Additional observations from a re-analysis of the deposited data

How the results depend on the processing

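With all arrays, limma called 4 genes higher in I363V and 11 higher in R397W. Leaving out 1 array at a time gave 1 to 30 and 0 to 27, the 0 being without R397W array 1 (1724 genes at an unadjusted p under 0.05), and leaving out both arrays numbered 2, an alternative chosen after seeing the data, gave 16 and 11. Fitting only the mutant arrays gave 1 and 1, only the 6 arrays gave 3 and 0 (1008 at an unadjusted p under 0.05), and array weights gave 7 and 15. Averaging the probe sets of a gene gave 2 and 1, choosing them by variance over the other 12 arrays gave 3 and 5, and testing every probe set, unnamed ones included (added after seeing the data), gave 7 and 24. An adjusted p under 0.1 gave 24 higher in R397W, and an added minimum difference of 1 gave 4. With the replicate number as a block, 10 genes were called over 18 arrays, 3 and 7, and 1 over the 6 arrays, 1 and 0 (1342 at an unadjusted p under 0.05). Same-numbered arrays of the 2 mutants deviated together with correlations over genes of 0.042, 0.339 and 0.015. Only the arrays numbered 2 correlated best with their own number, and 0.339 was the highest correlation between any arrays of the 2 mutants. What a number stands for is not labelled, so the main fit did not pair arrays by it. A shared source of the arrays numbered 2 was not tested. At a minimum difference of 0.5 in place of 1, 454 genes were seen on all arrays, 290 were carried by 1 array and 441 were neither; at 1.5 the counts were 23, 2 and 19. Of 878 values of 49 named genes over the alternatives, 718 kept their direction and side of the threshold, 133 lost and 23 gained a call, and 4 turned: Arhgef18 to 0.39 with the probe set chosen over the other 12 arrays, Apol8 to -0.00068 without I363V array 2 and -0.05 without both arrays numbered 2, and Fosl2 to -0.13 without I363V array 2. Leaving out single arrays gave Apol8 -0.00068 to 2.0 and Fosl2 -0.13 to 1.84. The 718 include values of genes that were never called, and all 133 lost calls fell on 14 of the 15 called genes. Gimap7 was called under 8 of 18 alternatives, Fam91a1 under 5 and 4930431P19Rik under 4, whereas Lyz2 and Madd were each called under 13. Lyz1 was called under all 18 alternatives that measured it. Because the values are centred on Tconv, signal over background could not be assessed, and faint genes could not be set apart.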

Other observations

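Cytokine and induced genes with a high value on I363V array 2 included Ifng, the gene of interferon gamma, at -0.09, 1.96 and 0.14 in I363V and at -0.50, 0.04 and -1.56 in R397W. Il10, the gene of a suppressive cytokine of effector Treg cells, was at 0.65, 2.03 and 0.24 against 0.26, 0.10 and 0.39. Nfil3, a transcription factor gene induced by cytokines, was at 0.86, 3.19 and 0.74 against 0.50, 0.14 and 0.72. The differences were 1.34, 0.72 and 1.15 with all arrays and 0.70, 0.20 and 0.35 without I363V array 2, and none was called by limma. These 3 genes were chosen after their values were seen.

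When every probe set was tested, 9160 were assigned to no gene, and 1 of them was called higher in I363V and 8 higher in R397W. Of 34945 probe sets assigned to 1 gene, 6 were called higher in I363V and 16 higher in R397W. Of the 932 assigned to several genes, 0 were called by limma in either direction.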
